A study of Nothobranchius furzeri with 42 samples.

Results

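The abundant muscle-enriched genes of the African turquoise killifish (Nothobranchius furzeri) were 219 of the 25475 genes counted, or 0.860% of them. They were chosen by their levels in these same libraries. The level is given in CPM, a read count scaled to a common library total. TMM factors, which limit the weight of a few very abundant genes, had first adjusted the totals of the 42 libraries. A gene was a member when its level in caudal fin muscle was at least 75 CPM and at least 10 times its level in each of heart, liver, spleen and kidney. The level of a tissue was the mean of its alendronate mean and its placebo mean. Where a gene is expressed is therefore given here as a description, with no test, whereas the difference between the 2 arms within a tissue played no part in the choice and was tested.

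All fish were females of the short-lived GRZ strain, kept at 28 °C and sampled at 19 weeks of age. The alendronate arm had 10 µM alendronate, a bisphosphonate drug used against bone loss, in the water for 3 weeks from 16 weeks of age, and the placebo arm had the same amount of distilled water. RNA came from 5 alendronate and 4 placebo fish. Muscle, heart and liver each had 5 alendronate and 4 placebo libraries, spleen had 5 and 3, and kidney had 5 and 2. How many tanks each arm had is unstated, so tank and treatment cannot be told apart, and p-values measure the spread between these fish. Muscle libraries held between 22171430 and 35717250 counts, and all 42 libraries between 20485992 and 35717250.

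Skeletal muscle is built of fibres packed with sarcomeres, in which thick filaments of myosin pull on thin filaments of actin. Calcium from the sarcoplasmic reticulum starts each contraction by releasing the troponin and tropomyosin block on the thin filament. Creatine kinase and glycolysis resupply the ATP, and parvalbumin helps fast fish fibres to relax. Messages for such proteins are typically among the most abundant in this tissue. The deposited table gives Ensembl gene IDs without names, and 0 of its IDs occur in the gene table at hand, which was made for the assembly NfurGRZ-RIMD1. No role could therefore be given to any member, lists of contractile, calcium and energy genes could not be matched, and neither the muscle label nor other cell types of the tail could be checked against marker genes. Members are named by their rank by muscle level, and by ID where a result turns on one. CPM are not corrected for transcript length, so ranks order shares of reads and not numbers of molecules.

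In muscle the 219 genes supplied between 40.2% and 47.5% of all counts of a library. Their levels ran from 76.6 to 67300 CPM with a median of 347 CPM, and the middle 50% lay between 154 and 1492 CPM. A few genes held most of this. The 8 highest members reached 50% of the summed level, the 10 highest made up 58.7% of it, and the lower 109 members together made up 2.86%. Levels of at least 1000 CPM were seen in 66 members and of at least 10000 CPM in 12. All 219 members had counts in each of the 9 muscle libraries.

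The highest member, ENSNFUG00015007012, stood in muscle at 39590, 66399, 76309, 68589 and 48962 CPM in alendronate fish 1 to 5 and at 90105, 68813, 96203 and 43401 CPM in placebo fish 1 to 4. Placebo fish 3 and 1 were highest and alendronate fish 1 and placebo fish 4 lowest, and the arms overlapped. On average it took 4.38% of the counts of a muscle library. The second, ENSNFUG00015023182, averaged 57263 ± 7263 CPM (SD, n = 5) with alendronate and 60471 ± 9277 CPM (SD, n = 4) with placebo. The third, ENSNFUG00015003794, was close to 0 outside muscle, at 0.604 CPM in heart, 0.563 in liver and 1.88 in spleen, but stood at 135.9 CPM in kidney. Its muscle level was 40890 CPM.

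**Figure D1:**
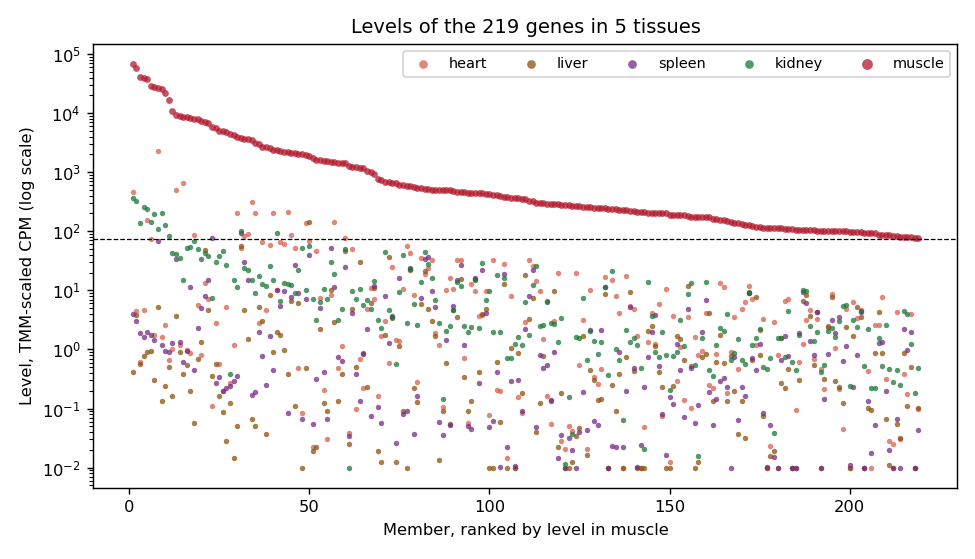
Level of each of the 219 genes in muscle, heart, liver, spleen and kidney (TMM-scaled CPM, log axis), with genes ordered by their level in muscle; each point is the mean of the 2 arm means, the dashed line is the limit of 75 CPM, and levels below 0.01 CPM are drawn at 0.01. The muscle levels fall steeply over the first 66 genes, from 67300 to 1000 CPM, and kidney levels fall with them, while heart levels scatter widely.

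The margin over the other tissues was often far wider than the rule asked. The muscle level was a median of 48.0 times that of the next highest tissue, with the middle 50% between 19.3 and 178 times. It was at least 100 times higher for 88 members and at least 1000 times for 7, while 57 members were less than 20 times higher. ENSNFUG00015018743, ranked 61 with 1295 CPM in muscle, had the widest margin. It reached 0.0388 CPM in heart, 0.0344 in spleen and 0.0253 in liver, and had 0 counts in all 7 kidney libraries, where 3 counts would have been 0.0175 CPM. At the limits of the rule, the last 2 genes inside had muscle levels of 77.6 and 76.6 CPM and the first 2 outside had 74.6 and 74.6 CPM. The 2 narrowest margins inside were 10.1 and 10.2 times, and the 2 widest outside were 9.998 and 9.93 times. The number of members depended on the scaling. With library totals only, 137 genes met the rule, all of them among the 219.

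Kidney was the next highest tissue for 105 members and heart for 87, followed by liver for 15 and spleen for 12. These tissues held the members in different ways. Kidney levels followed muscle levels. The kidney level was a median of 0.603% of the muscle level, 119 of 219 members lay within 2-fold of that percentage, and the Spearman correlation between the muscle and kidney levels over the 219 genes was 0.716, as a description. Of the 50 highest members, 43 lay within 2-fold of their own median of 0.567%. In heart there was no such common percentage. There 35 of 219 members, and 6 of the 50 highest, lay within 2-fold of the median, and the correlation was 0.369.

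**Figure D2:**
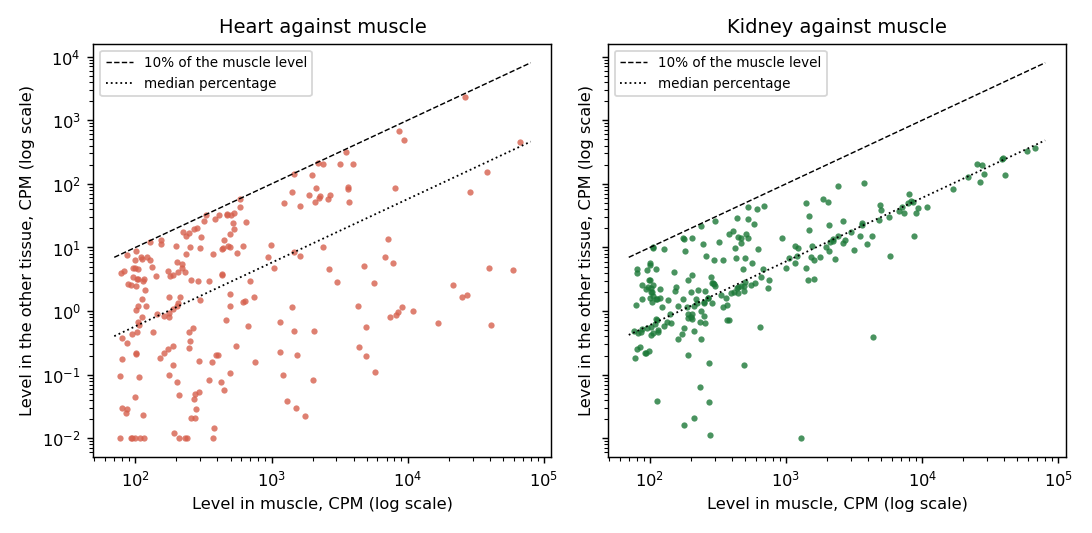
Level of each of the 219 genes in heart (left) and kidney (right) against its level in muscle, in CPM on log axes; the dashed line is the rule's limit of 10% and the dotted line the median percentage, 0.576% in heart and 0.603% in kidney, with levels below 0.01 CPM drawn at 0.01. The points in kidney gather along the dotted line, and those in heart spread over several orders of magnitude.

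In heart, 96 members had at least 1% of their muscle level and 37 at least 5%, while 70 had less than 0.1% and 83 were under 1 CPM. Genes that were alike in muscle could differ there by orders of magnitude. ENSNFUG00015010155, ranked 8 in muscle with 26550 CPM, had 2318 CPM in heart, which was 8.73% of its muscle level and the highest heart level of any member. ENSNFUG00015003794, ranked 3, had 0.00148%. Counts from the members made up 0.998% to 1.10% of each alendronate heart library and 0.869% to 1.01% of each placebo heart library. The means were 1.04% ± 0.0441 (SD, n = 5) and 0.939% ± 0.0646 (SD, n = 4). The arms overlapped through placebo fish 3 alone, and this difference was not tested.

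Kidney libraries differed more. The members took 0.160%, 1.99%, 1.25%, 0.584% and 0.682% of kidney counts in alendronate fish 1 to 5 and 0.565% and 0.534% in placebo fish 2 and 3. Alendronate fish 2 was highest and alendronate fish 1 lowest, and both placebo libraries lay between them. The median kidney level of the 50 highest members was 1.72% of the muscle level in alendronate fish 2 and 0.0547% in alendronate fish 1. In each of the 7 kidney libraries between 30 and 43 of these 50 genes lay within 2-fold of the library's own median. In bulk tissue, more cells of a type and more RNA per cell cannot be told apart, and whether muscle tissue was included with the kidney was not tested.

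On average liver and spleen held the least, although the kidney of alendronate fish 1, at 0.160% of counts, lay within the range of the spleen libraries. In liver 147 members, and in spleen 132, were under 1 CPM. The members took 0.0327% to 0.0447% of counts in alendronate liver libraries and 0.0266% to 0.0381% in placebo ones. In spleen it was 0.111% to 0.206% with alendronate and 0.145% to 0.205% with placebo. The arms overlapped in both tissues, and these differences were not tested. In liver 15 members had 0 counts in every library, and in spleen and in heart 5 each. In liver, 3 counts over all 9 libraries would be 0.0122 CPM by library totals, without TMM factors. These factors were 0.364 to 0.687 in liver, so the scaled value is higher. One library of each tissue stood apart in how many of the 50 highest members kept the proportions of muscle. In the spleen of placebo fish 3, 31 of the 50 lay within 2-fold of that library's median percentage, against 4 to 9 in the other spleen libraries. In the liver of alendronate fish 4 it was 20, against 4 to 9. Their medians there were 0.0343% and 0.0198% of the muscle level.

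**Figure D3:**
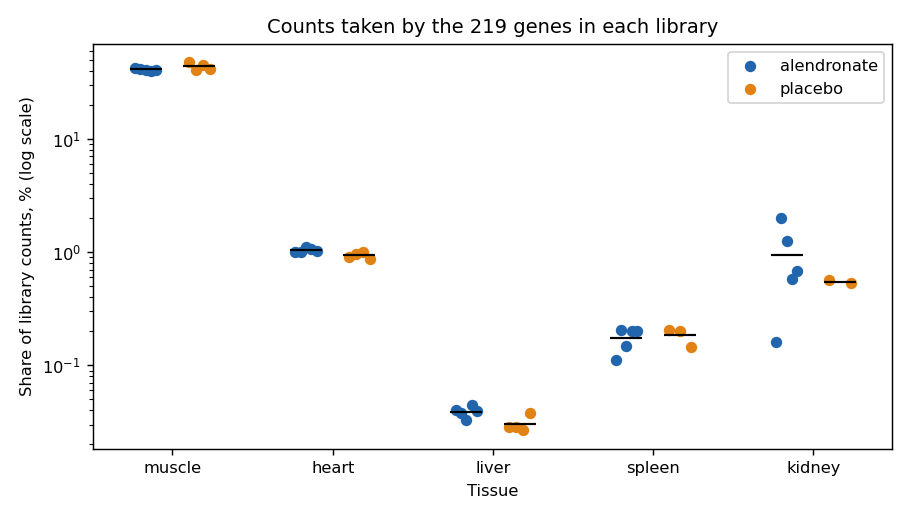
Share of each library's counts taken by the 219 genes, in percent on a log axis, by tissue and arm; each point is 1 library and each black line the mean of a group. Muscle libraries lie between 40.2% and 47.5%, heart libraries near 1%, and kidney libraries range from 0.160% to 1.99%.

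Within muscle, the members differed in how much they varied between fish. The SD of log2 CPM within arms had a median of 0.371 over the 219 genes, and ran from 0.103 to 1.69. For comparison, with no test, the median was 0.459 over the 183 less abundant muscle-enriched genes (5 to under 75 CPM, same fold limit) and 0.277 over the 1510 other genes with at least 75 CPM in muscle. ENSNFUG00015021484, ranked 211, was the steadiest. Its muscle levels were 75.8, 86.7, 88.4, 90.6 and 81.5 CPM in alendronate fish 1 to 5 and 86.8, 93.7, 94.3 and 81.2 CPM in placebo fish 1 to 4, and the arms overlapped. Among the 10 highest members the SD ran from 0.150 at rank 6 to 0.862 at rank 8.

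The rank 8 gene, ENSNFUG00015010155, stood in muscle at 8805, 22339, 27359, 57966 and 18565 CPM in alendronate fish 1 to 5 and at 32356, 26662, 33062 and 12291 CPM in placebo fish 1 to 4. It was highest in alendronate fish 4 and lowest in alendronate fish 1, with both arms spanning a wide range. ENSNFUG00015022759, ranked 143, had the widest spread of all members. It stood at 20.9, 134.6, 146.3, 1233 and 115.4 CPM in alendronate fish 1 to 5 and at 30.5, 143.1, 85.6 and 96.8 CPM in placebo fish 1 to 4. Alendronate fish 4 was 11.6 times the median of the other 8 libraries. The next widest, ENSNFUG00015016935 at rank 67, went the other way. It had its lowest value in alendronate fish 4, 141.6 CPM, and its highest in placebo fish 4, 1887 CPM.

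Of the 22 members with the widest spread, each with an SD of at least 0.689, alendronate fish 4 was the lowest library for 11 and the highest for 4. Those 4 were ranked 8, 35, 143 and 181. The first principal axis of the deviations from the arm means held 42.1% of the variance of the 219 genes and set alendronate fish 4, with a loading of 0.731, against alendronate fish 1, with -0.509. Over all 219 members, alendronate fish 4 was at least 2-fold above the median of the other libraries for 13 genes and at least 2-fold below for 17. The next libraries were placebo fish 1, with 7 above and 20 below, and placebo fish 4, with 9 above and 16 below. In contrast, placebo fish 2 had 1 above and 1 below. Placebo fish 2 had the highest total count in muscle and placebo fish 1 the lowest, with alendronate fish 4 between them at 28452370. Whether these numbers depend on the total count was not tested.

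The closest pair among the 22 was ENSNFUG00015008974, rank 48, and ENSNFUG00015008952, rank 100. Their deviations had a Pearson r of 0.992 over the 9 muscle libraries, the highest of 231 pairs, which share the same libraries. The first stood at 3.72 to 5.81 times the second in every library. It ran from 182 CPM in alendronate fish 4 to 4902 CPM in alendronate fish 1. The handling of reads that match more than 1 gene is unstated, so counts of near-identical copies would be uncertain.

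**Figure D4:**
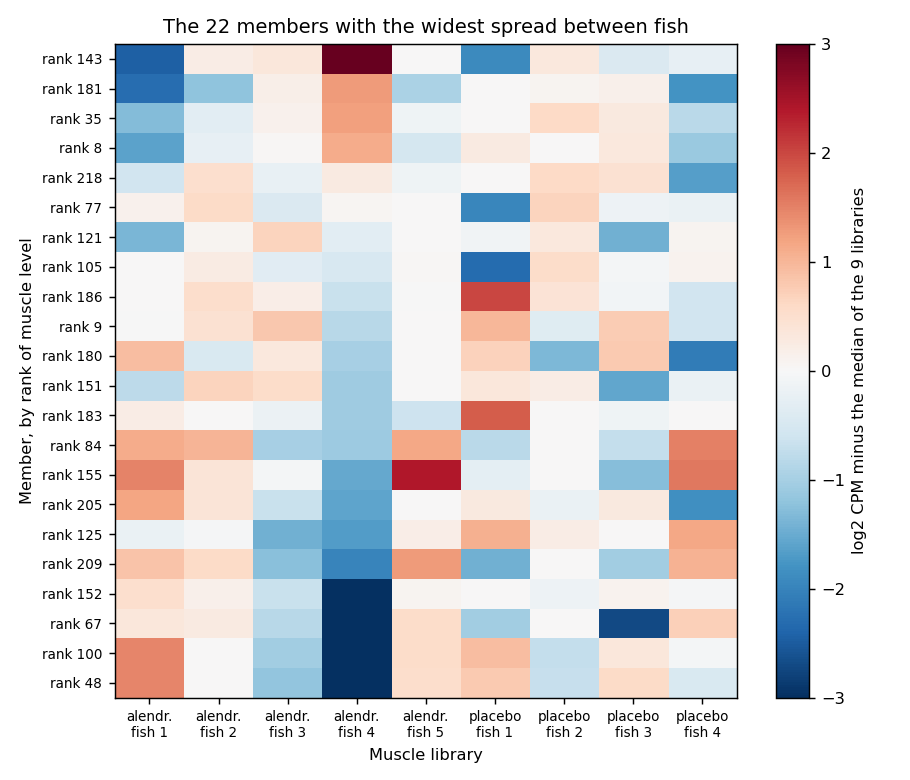
Heat map of the 22 members with the widest spread in muscle (rows, named by rank of muscle level) over the 9 muscle libraries (columns); colour is log2 CPM minus the median of the 9 libraries, and colours end at 3 in either direction. Rows are ordered by alendronate fish 4, which is highest in 4 rows and lowest in 11.

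No member passed the test between alendronate and placebo in muscle. All 219 were tested among 15610 genes with edgeR's quasi-likelihood test and Benjamini-Hochberg adjustment over all of them at a threshold of 0.05. The test called 0 members, against 1 of all genes, or 0.00641%, and the smallest adjusted p of a member was 0.664. DESeq2 and limma-voom also called 0 members, against 2 and 1 of all genes. At an unadjusted p under 0.05 there were 15 members, or 6.85%, with 3 higher and 12 lower, which is near the 7.41% of all genes tested. The fitted log2 change was above 0 for 110 members and below 0 for 109. Its median was 0.00, as it was over all genes, and it stayed between -0.03 and 0.04 under other scalings and when leaving out each library. This balance did not hold among the 10 highest members. Only ranks 3 and 8 were above 0 there, with 0.03 and 0.04. The others ran from -0.33 at rank 1 to -0.09 at rank 2. Members share the same libraries, and this lean was not tested.

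The libraries bounded most of these differences. For 178 of the 219 members, or 81.3%, the 95% confidence interval stayed inside a 2-fold change either way, against 69.5% of all genes tested, and for 78 it stayed inside 1.5-fold. The remaining intervals leave room for larger differences. For the highest member, ENSNFUG00015007012, the fitted log2 change was -0.33 with an interval from -0.93 to 0.28 and an adjusted p of 0.787 by edgeR. In muscle, the members took 41.9%, 41.8%, 40.9%, 40.2% and 41.0% of counts in alendronate fish 1 to 5 and 47.5%, 41.0%, 45.3% and 41.6% in placebo fish 1 to 4. Placebo fish 1 and 3 were above all other libraries, and the arms overlapped. The means were 41.2% ± 0.716 (SD, n = 5) and 43.8% ± 3.09 (SD, n = 4), a difference of -2.69 percentage points, which became -1.48 when placebo fish 1 was left out and -3.64 when placebo fish 2 was. This difference was not tested.

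**Figure D5:**
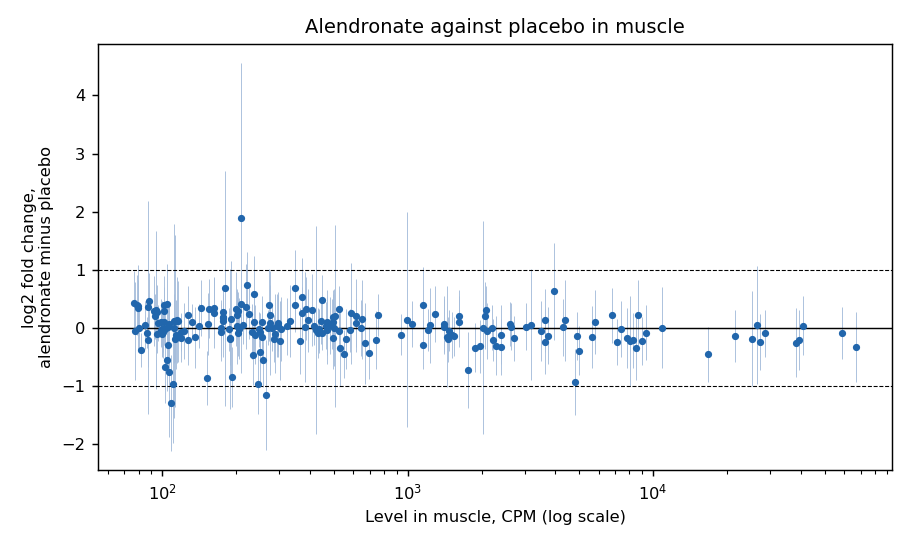
Fitted log2 fold change in muscle, alendronate minus placebo, of each of the 219 genes against its muscle level in CPM (log axis); bars are 95% confidence intervals from edgeR and dashed lines mark 2-fold. The changes lie on both sides of 0, with 110 above and 109 below, and the point near 1.88 is the gene that was high in alendronate fish 4 alone. Among the 10 highest members only ranks 3 and 8 lie above 0.

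The 2 members with the most negative fitted changes were ENSNFUG00015004411, rank 184, and ENSNFUG00015017371, rank 125. The first stood in muscle at 79.5, 63.4, 48.9, 59.8 and 66.5 CPM in alendronate fish 1 to 5 and at 319, 88.0, 92.2 and 117 CPM in placebo fish 1 to 4. All 5 alendronate libraries lay below all 4 placebo libraries, of which placebo fish 1 was by far the highest. The log2 change was -1.30 (SE 0.37, adjusted p = 0.664 by edgeR), and it was -0.65 without placebo fish 1. ENSNFUG00015017371 averaged 166 ± 84.7 CPM (SD, n = 5) with alendronate and 365 ± 141 CPM (SD, n = 4) with placebo, a log2 change of -1.17 (SE 0.43, adjusted p = 0.664 by edgeR). Its arms overlapped, with 69.5 to 259 CPM against 225 to 499 CPM.

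The 2 most positive changes belonged to ENSNFUG00015022759 and to ENSNFUG00015009233, rank 139. The first, whose values are given above, had a log2 change of 1.88 (SE 1.15, adjusted p = 0.721 by edgeR), and of 0.22 without alendronate fish 4. ENSNFUG00015009233 stood at 137, 355, 299.7, 274 and 316 CPM in alendronate fish 1 to 5 and at 129, 237, 168 and 123 CPM in placebo fish 1 to 4. Alendronate fish 1 overlapped the placebo range and the other 4 lay above it. Its log2 change was 0.74 (SE 0.26, adjusted p = 0.664 by edgeR).

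In 5 of 219 members, or 2.28%, the muscle libraries of the arms did not overlap, 4 of them lower and 1 higher with alendronate, which is near the 2.36% of all genes tested. The lower ones were ranked 132, 166, 184 and 213 and the higher one 156. The adjusted p by edgeR was at least 0.664 for each, and no member with such a pattern was among the 100 highest.

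Outside muscle each member had at most 10% of its muscle level by the rule, and not all members had enough counts to be tested. In heart 159 members were tested, in liver 82, in spleen 131 and in kidney 211. A gene can pass this filter through 1 arm alone, so the numbers below describe those members only. In heart edgeR called 0 members and 0% of 15975 genes, and 10 members had an unadjusted p under 0.05, or 6.29%, with 9 higher and 1 lower, against 2.62% of all genes. In liver it called 0 members and 0% of 15167 genes, with 8 members at an unadjusted p under 0.05, or 9.76%, 5 higher and 3 lower, against 4.37%. In spleen it called 0 members and 0% of 17545 genes, with 9 members, or 6.87%, 2 higher and 7 lower, against 1.62%. In kidney it called 0 members and 0% of 19282 genes, with 4 members, or 1.90%, 2 higher and 2 lower, against 1.7%. DESeq2 and limma-voom called 0 members in each of these tissues. Of all genes, DESeq2 called 0 in heart, 1 in liver, 10 in spleen and 2 in kidney, and limma-voom called 0 in each. DESeq2 gave no adjusted p for 7 members in heart, 18 in liver, 122 in spleen and 3 in kidney.

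The fitted log2 change was above 0 for 109 of the 159 members tested in heart, or 68.6%, against 49.8% of all genes tested there. In liver it was above 0 for 56 of 82, or 68.3%, against 55.4%, and in spleen for 70 of 131, or 53.4%, against 53.0%. In kidney it was above 0 for 154 of 211, or 73.0%, against 56.3%, and the median log2 change was 0.41, against 0.04 over all genes. The 2 kidney libraries with the highest shares of member counts, alendronate fish 2 and 3, are in that arm, as is the lowest, alendronate fish 1. For 13 of the 211 kidney members, or 6.16%, the 95% interval stayed inside a 2-fold change, against 48.0% of all genes tested. These percentages were 59.1% against 74.7% in heart, 24.4% against 60.4% in liver and 19.1% against 54.6% in spleen. In liver the median was 0.31 over the 82 members tested, against 0.04 over all genes, in heart 0.08 over 159 against 0.00, and in spleen 0.04 over 131 against 0.02. The members that could be tested differ between tissues, so these medians are not compared with each other. Members of a tissue share the same libraries, so the number above 0 is not a number of independent observations. A member can also pass the filter through 1 arm alone. Neither these numbers nor the medians were tested.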

How the data were processed

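The authors deposited 1 table of raw counts, whole numbers, with a row per Ensembl gene and a column per library. Per the submitters' processing notes, the tools were STAR 2.7.10b, SAMtools 1.13, Trim Galore 0.6.10, FastQC 0.12.1, MultiQC 1.28, bcl2fastq and CASAVA. Counting program, strand setting, genome build and annotation: not given in the sources used here. Overlapping or antisense genes cannot be told apart. The table has 0 rows that name no gene and 0 columns of no sample.

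Members and lists were chosen with earlier results of these data known. Levels are edgeR CPM with TMM factors over the 42 libraries, which ran from 0.364 to 1.91. Each tissue was then fitted alone, on all its genes, with edgeR 4.0.16 in R 4.3.3 (filterByExpr, TMM, robust quasi-likelihood F test, two-sided, treatment as the only term). Standard errors were worked back from that test, as the size of the log2 change over the square root of F. The 95% intervals are the change plus and minus a t quantile times this standard error, an approximation. SDs of log2 CPM used a pseudocount of 0.5. Alternatives were DESeq2 1.42.0, limma-voom (limma 3.58.1), other scalings, no filter, 1 fit of all libraries, a replicate block and leaving out each library. The scripts were tested on simulated data. Shares have 95% Wilson intervals of at most 0.0208 percentage points to either side, covering counting error only. The least chi-square per degree of freedom between replicates of the same tissue and arm was 28.6, where sampling noise gives 1. Within such a group, libraries thus differed by more than sampling noise. This check did not cover libraries of different groups. The rule for named genes took any member past the threshold, the 10 of highest muscle level, the 3 with the most negative and the 3 with the most positive change, the 3 of highest and the 3 of lowest SD, and the 2 genes on each side of both limits. As IDs could not be paired with names, at most 2 IDs in each direction are printed for changes, and others are given by rank or range. ENSNFUG00015018743, ENSNFUG00015008952 and the groups around rank 8 were chosen after their values were seen. Libraries that share a title prefix were read as 1 fish.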

Additional observations from a re-analysis of the deposited data

Results flagged for a closer look

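Among 68 groups of 4 or 5 libraries that were looked at, Dixon's test at 95% set the highest library apart in 4. For independent normal values chance gives about 1 in 20, or 3.4. However, the groups included muscle levels of genes chosen in these same data for a large change, a small p between the arms or a wide spread. The genes flagged below were among these, so the 4 cannot be judged against the 3.4. In liver, the 50 highest members had a median level of 0.0198% of the muscle level in alendronate fish 4, against at most 0.00556% in the other alendronate livers. In muscle, placebo fish 1 had 319 CPM of ENSNFUG00015004411 (next placebo library 117 CPM) and 320.2 CPM of ENSNFUG00015012657 (next 91.0 CPM). In muscle, alendronate fish 4 had 1233 CPM of ENSNFUG00015022759 (next alendronate library 146 CPM).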

How the results depend on the processing

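In all 82 alternative fits of the 5 tissues, 0 members were called. Of these, 42 left out 1 library each, and in every tissue the number called stayed between 0 and 0. The number of all genes called was counted only for the main fit, DESeq2 and limma-voom. The replicate block also called 0 members in each tissue, with 73 kidney members at an unadjusted p under 0.05 against 4 without it. It gave 11 against 15 in muscle, 13 against 10 in heart, 6 against 8 in liver and 8 against 9 in spleen. The share of all genes at that p was not counted for the block or for any other alternative fit. Whether such numbers are particular to the members is therefore unknown. In kidney only numbers 2 and 3 have libraries of both arms. The blocked kidney fit thus compared only alendronate fish 2 and 3 with placebo fish 2 and 3. In kidney the members took 1.99% and 1.25% of counts in those alendronate fish, against 0.565% and 0.534% in those placebo fish. Equal numbers in the arms mark different fish, and deviations of same-numbered libraries correlated from -0.127 to 0.219 in muscle, -0.138 to 0.420 in heart, -0.318 to 0.211 in liver, -0.240 to 0.278 in spleen and -0.0276 to 0.371 in kidney. In each tissue at least 1 pair was below 0.1, so the numbers were not taken to pair the samples. The median log2 change of the members in muscle was -0.003, 0.04 and 0.002 under the 3 other scalings, and without single libraries it ran from -0.03 to 0.02. The difference in their share of muscle counts ran from -3.64 to -1.48 percentage points. Members at an unadjusted p under 0.05 ran from 9 to 21 in muscle, 5 to 15 in heart, 3 to 13 in liver, 5 to 16 in spleen and 1 to 26 in kidney over the fits without 1 library, with 26 reached without alendronate fish 1. One fit of all 42 libraries gave 5 in muscle, 10 in heart, 22 in liver, 30 in spleen and 28 in kidney, against 15, 10, 8, 9 and 4. The cause of these differences was not tested, and for these fits too the share of all genes was not counted. The 4 changes with their values given kept their sign in every fit, but that of ENSNFUG00015022759 was 0.88 with limma-voom and 0.82 with the replicate block, against 1.88. The number of members was 137 with library totals only, 231 with DESeq2 size factors, 250 and 166 at limits of 50 and 150 CPM, 320 and 162 at 5-fold and 20-fold, and 214 to 224 without 1 fish. Too few counts kept 60 members in heart, 137 in liver, 88 in spleen and 8 in kidney from being tested in the main fit. For those, the main fit neither showed nor bounded a difference between the arms. Without the filter, 12 members in heart, 14 in liver, 29 in spleen and 4 in kidney had an unadjusted p under 0.05, and 0 were called.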
